A study of Rattus norvegicus with 46 samples.

Results

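The nuclear-encoded subunits of the mitochondrial respiratory chain and of the ATP synthase were followed in rat heart muscle cells treated with 5 fatty acids. Members were the array probes whose gene symbol begins with Nduf, Sdh, Uqcr, Cox4 to Cox8 or Atp5 and which were detected above the negative control beads (detection p under 0.01) in at least 7 arrays. The symbol rule found 60 of 22517 probes, and 57 of these, each for a different gene, passed the detection filter, which left 7312 probes of the whole array. Ndufa7 and Ndufb4 were detected in 0 arrays and Cox6b in 1. Complex I had 25 members, complex II 4, complex III 5, complex IV 11 and the ATP synthase (complex V) 12. The group holds 2 assembly proteins, Ndufaf1 and Cox7a2l, and the coupling factor Atp5s, now called Dmac2l. The symbol Cox6c1 now stands for a pseudogene, and Cox8h and Ndufs5b are older names of Cox8b and Ndufs5.

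Cardiomyocytes from adult male wildtype Wistar rats were cultured for 24 h with 1% bovine serum albumin (BSA) alone, the control (7 arrays), or with 0.4 mM of a fatty acid bound to that amount of BSA. The fatty acids were octanoate (8 arrays), palmitate (8), stearate (8), oleate (8) and linoleate (7), and no group lacked BSA. The labels do not say whether replicates came from separate animals or cultures, and the p-values therefore reflect array-to-array spread that could be technical in part. Cells in culture were measured as a bulk, so fewer cells of a type and less RNA per cell cannot be told apart.

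Complex I takes electrons from NADH and complex II takes them from succinate. Both hand them to ubiquinone, complex III passes them on to cytochrome c and complex IV to oxygen. The proton gradient built on the way drives the ATP synthase, which makes most of the ATP that a beating heart uses, largely from fatty acids. Each complex is built from many subunits in fixed proportions, some of them encoded in mitochondrial DNA and not covered by these symbols. Their nuclear genes are known targets of the transcription factors NRF1, GABPA, ESRRA and YY1 and of the coactivator PGC-1.

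Levels are background-corrected, quantile-normalized log2 intensities, and changes are differences of log2 group means with their standard errors after ±. Adjusted p-values are from limma with Benjamini-Hochberg adjustment over all 7312 probes. A member is said to have risen or fallen where its adjusted p was under 0.05. Levels of different probes are not set against each other. The 5 comparisons with control share its 7 arrays.

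Per array, 3090 to 7886 probes were detected. Of 10 cardiomyocyte markers 8 were detected in at least 7 arrays (not Myl2 and Actc1), against 0 of 4 endothelial and 0 of 4 adipocyte probes, 1 of 5 smooth muscle and pericyte probes (Cspg4), 4 of 8 fibroblast, 2 of 4 leukocyte and 2 of 3 erythroid probes. One library went against its label: Pdk4, a kinase gene known to be induced by fatty acids, read 7.33 in the array labelled stearate replicate 4 and 11 to 12.73 in the other stearate arrays. It read 6.17 to 7.97 in control and 6.34 to 7.64 under octanoate. Counts and medians of the members under stearate are therefore also given without that array. Values of single genes and of markers under stearate keep it unless stated otherwise. The mean of 8 hypoxia-responsive genes was 11.21 to 11.29 in the arrays numbered 4 of octanoate, palmitate, oleate and linoleate, 9.80 in octanoate 7, 9.66 in palmitate 7 and 9.37 in linoleate 6, against 8.28 to 8.88 in control. In the stearate arrays it was 8.56 to 9.27, with 9.05 in stearate replicate 4.

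In the quantile-normalized data the members had their lowest group mean most often under octanoate and their highest most often under stearate, an order that depends on the scaling. Octanoate gave the lowest of the 6 group means for 45 of 57 members (78.9%) and for 27.1% of all probes tested. Stearate gave the highest mean for 38 members (66.7%) and for 18.6% of all probes. These counts were 44 lowest under octanoate and 26 highest under stearate when stearate replicate 4 was left out. With every array scaled to the median of the probes detected in all arrays, the counts were 40 and 42. The shares of all probes tested were then 28.5% and 30.4%. With arrays scaled to the median of all probes, octanoate was lowest for 22 members and stearate for 21, beside 10.3% and 70.1% of all probes tested. Control was highest for 42 members and stearate for 1, beside 39.7% and 1.07%. The members' median changes against control were then -0.37 for octanoate, -0.37 for palmitate and -0.36 for stearate. Over all probes tested they were -0.01, -0.13 and -0.49. Tested for a change by any of the fatty acids (limma's F test), 15 of 57 members (26.3%) passed, beside 28.7% of all probes, so the share that changed was near the background. These were 9 members of complex I, 4 of the ATP synthase, Sdhc of complex II and Cox5b of complex IV, and none of the 5 members of complex III. The smallest adjusted p-values of this test were those of Atp5c1 (0.000712), Ndufb7 (0.000888) and Ndufa2 (0.000982). Without the arrays numbered 5 the count was 8 and without those numbered 6 it was 9.

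**Figure D1:**
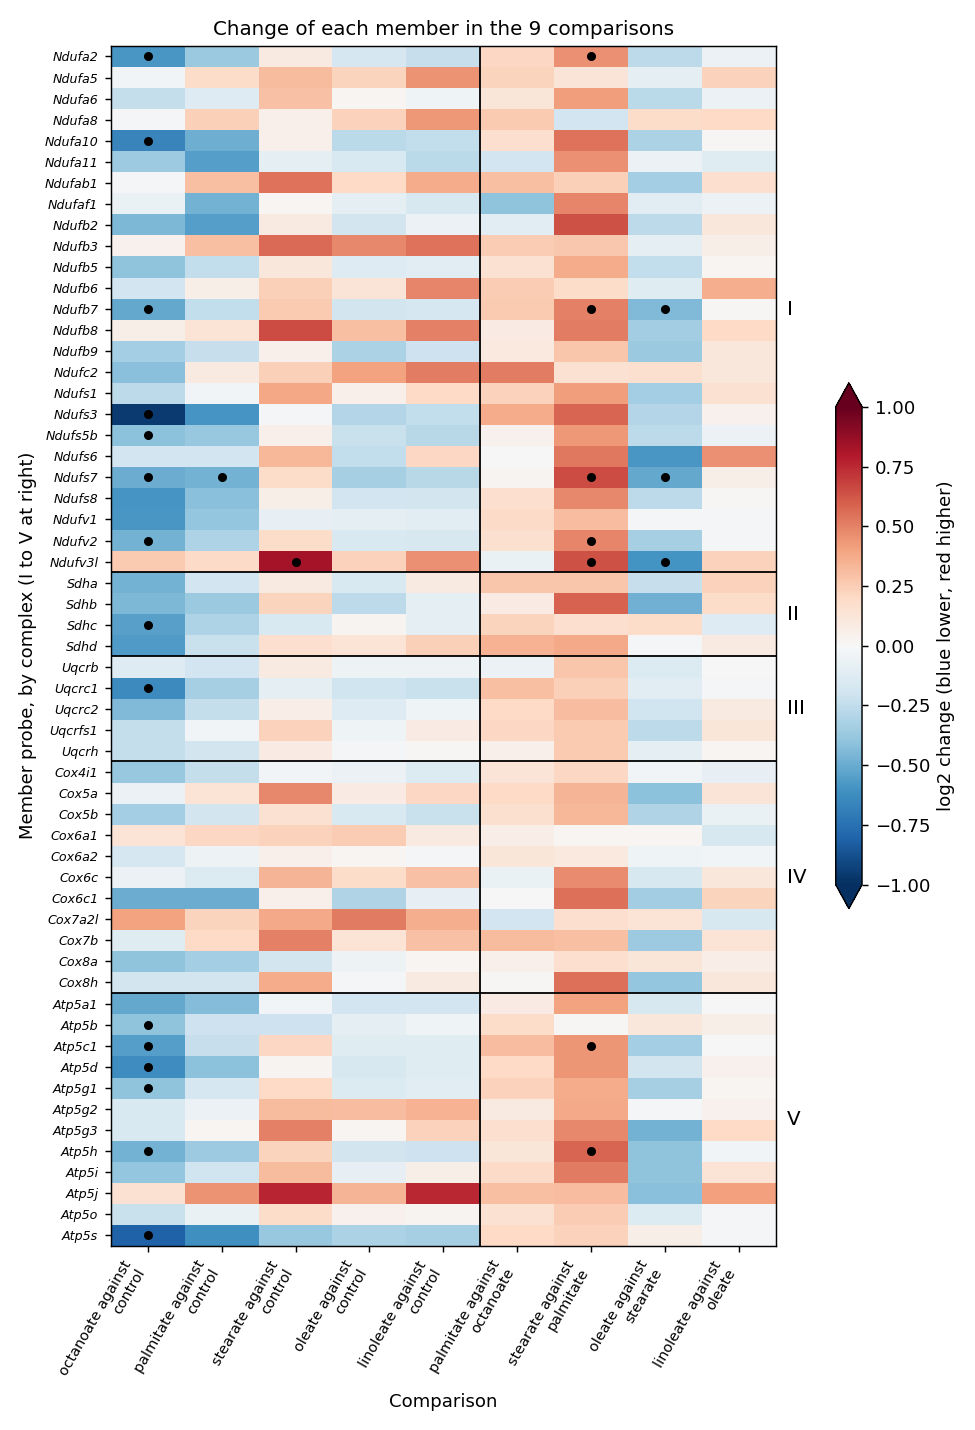
Log2 change of each of the 57 members (rows, grouped by complex I to V) in the 9 comparisons (columns), blue for lower and red for higher in the group named first. Black dots mark an adjusted p under 0.05: 15 members fell under octanoate, 7 were higher under stearate than under palmitate, and 0 passed under oleate or linoleate. Scaled to the median of all probes, the median of the stearate against control column was -0.36 in place of 0.18. The median over all probes tested was then -0.49 in place of -0.05.

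Octanoate, a medium-chain saturated fatty acid, was accompanied by lower levels of members, most of them of complex I and of the ATP synthase. Against control 15 of 57 members fell (26.3%), where 12.9% of all probes fell, and 0 rose, where 11.5% of all probes rose. The median change over the members was -0.38, beside -0.02 over all probes, and 51 of 57 were negative. The ATP synthase held 6 of 12 members that fell, complex I 7 of 25, complex II 1 of 4, complex III 1 of 5 and complex IV 0 of 11. Complexes II and III have too few members to tell a single fall in each from the share of all probes. Of the 42 members that did not pass, changes ran from -0.59 to 0.40, and 23 members in all had an unadjusted p under 0.05.

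Ndufs3, a core subunit of the arm of complex I that binds ubiquinone, showed the largest fall. Its level was 11.61 to 12.66 (median 11.98) in the 7 control arrays and 10.60 to 11.64 (median 10.97) in the 8 octanoate arrays. The ranges met in a narrow band, with 7 of 8 octanoate arrays below every control array, and the change of -0.96 ± 0.21 (adjusted p = 0.000578) corresponds to a level 1.95-fold higher in control. Ndufs7, which carries the last iron-sulfur cluster before ubiquinone, fell from 10.69 to 11.36 (median 10.81) to 9.67 to 10.82 (median 10.45), by 0.50 ± 0.16 (adjusted p = 0.0143). Again 7 of 8 octanoate arrays lay below the lowest control array. Ndufv2, an iron-sulfur subunit of the NADH-oxidizing module, fell by 0.47 ± 0.14 (adjusted p = 0.0114), with 5 of 8 arrays below all controls.

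The other complex I members that fell are accessory subunits, which surround the catalytic core. Ndufa10 of the membrane arm read 13.07 to 13.93 (median 13.63) in control and 12.52 to 13.13 (median 12.88) under octanoate, a change of -0.66 ± 0.18 (adjusted p = 0.00456). Ndufa2 read 12.88 to 13.64 (median 13.25) in control and 12.25 to 13.15 (median 12.60) under octanoate, a change of -0.58 ± 0.14 (adjusted p = 0.00138). Ndufb7 went from 12.44 to 12.90 (median 12.75) to 11.80 to 12.52 (median 12.15), by -0.51 ± 0.14 (adjusted p = 0.00736). For each of these 3 genes 6 or 7 of the 8 octanoate arrays lay below the lowest control array. Ndufs5b also fell (-0.41 ± 0.15, adjusted p = 0.0335). The core subunits Ndufv1, which binds the flavin that oxidizes NADH (-0.58 ± 0.22, adjusted p = 0.0507), and Ndufs1, its iron-sulfur partner (-0.26 ± 0.37, adjusted p = 0.65), did not pass.

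In complex II only Sdhc, a membrane anchor that holds the heme, passed. It read 13.34 to 14.02 (median 13.61) in control and 12.73 to 13.42 (median 13.15) under octanoate, with 7 of 8 arrays below all controls, and fell by 0.54 ± 0.14 (adjusted p = 0.00377). The catalytic flavoprotein Sdha changed by -0.47 ± 0.44 (adjusted p = 0.47) and the iron-sulfur subunit Sdhb by -0.45 ± 0.25 (adjusted p = 0.18). These estimates are close to that of Sdhc but have larger errors: Sdha spread from 10.03 to 12.91 within the control arrays alone.

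Uqcrc1, a core protein on the matrix side of complex III, read 12.68 to 13.87 (median 13.32) in control and 12.17 to 13.03 (median 12.76) under octanoate. It fell by 0.64 ± 0.19 (adjusted p = 0.0121) although the groups overlapped, with 3 of 8 octanoate arrays below all controls. Its partner Uqcrc2 changed by -0.44 ± 0.17 (adjusted p = 0.0576) and Uqcrfs1, the Rieske iron-sulfur protein, by -0.24 ± 0.15 (adjusted p = 0.254).

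Of the ATP synthase, subunits of the rotor, the catalytic head and the peripheral stalk fell. Atp5c1, the gamma subunit of the central stalk, read 13.07 to 13.45 (median 13.28) in control and 12.39 to 13.08 (median 12.66) under octanoate. All but 1 of the octanoate arrays lay below the lowest control array, and the change was -0.55 ± 0.14 (adjusted p = 0.00302). Atp5d, the delta subunit of that stalk, changed by -0.62 ± 0.20 (adjusted p = 0.019), from 11.24 to 12.72 (median 11.75) to 10.75 to 11.72 (median 11.26). Atp5h, subunit d of the peripheral stalk, changed by -0.47 ± 0.17 (adjusted p = 0.0375), with 5 of 8 arrays below all controls. The catalytic beta subunit Atp5b fell by 0.40 ± 0.15 (adjusted p = 0.0412), from 15.15 to 15.74 (median 15.59) to 14.64 to 15.74 (median 14.99). Its probe read a median of 71.1% of the highest signal of its array, and whether that limits the change seen was not tested. The alpha subunit Atp5a1 changed by -0.51 ± 0.25 (adjusted p = 0.133).

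Atp5g1 is 1 of 3 genes that encode the same mature c subunit of the membrane ring. It fell by 0.40 ± 0.15 (adjusted p = 0.0475), from 14.39 to 15.31 (median 14.74) to 14.12 to 14.71 (median 14.36). Atp5g2 changed by -0.15 ± 0.30 (adjusted p = 0.746) and Atp5g3 by -0.15 ± 0.20 (adjusted p = 0.611). The differences between these 3 genes were not tested, and Atp5g3 was detected in 28 of 46 arrays. For the coupling factor Atp5s the groups did not overlap (-0.81 ± 0.22, adjusted p = 0.00536). It read 7.23 to 7.63 (median 7.42) in control and 6.12 to 7 (median 6.66) under octanoate. Its probe is dim and was detected in 6 of 7 control and 3 of 8 octanoate arrays. Here and below, the share of all probes whose groups did not overlap was not counted.

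Complex IV had no member past the test under octanoate, with a median change of -0.17, a range from -0.50 to 0.40 and 2 of 11 members at an unadjusted p under 0.05. Of its 11 estimates 9 were negative. Cox5b, a nuclear subunit on the matrix side, changed by -0.34 ± 0.13 (adjusted p = 0.0601), and Cox4i1, the regulatory subunit that binds ATP, by -0.38 ± 0.18 (adjusted p = 0.119). Cox5a changed by -0.06 ± 0.35 (adjusted p = 0.93). The muscle isoform Cox6a2 changed by -0.17 ± 0.18 (adjusted p = 0.521) and its ubiquitous counterpart Cox6a1 by 0.14 ± 0.12 (adjusted p = 0.451). The Cox6a2 probe read a median of 65.2% of the highest signal of its array, and whether that limits the change seen was not tested. The ubiquitous Cox8a changed by -0.40 ± 0.21 (adjusted p = 0.157) and Cox8h, the muscle isoform of rodents, by -0.18 ± 0.27 (adjusted p = 0.655). Cox7a2l, an assembly protein of supercomplexes, had the highest estimate (0.40 ± 0.33, adjusted p = 0.402). Whether complex IV differs from the other complexes was not tested.

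**Figure D2:**
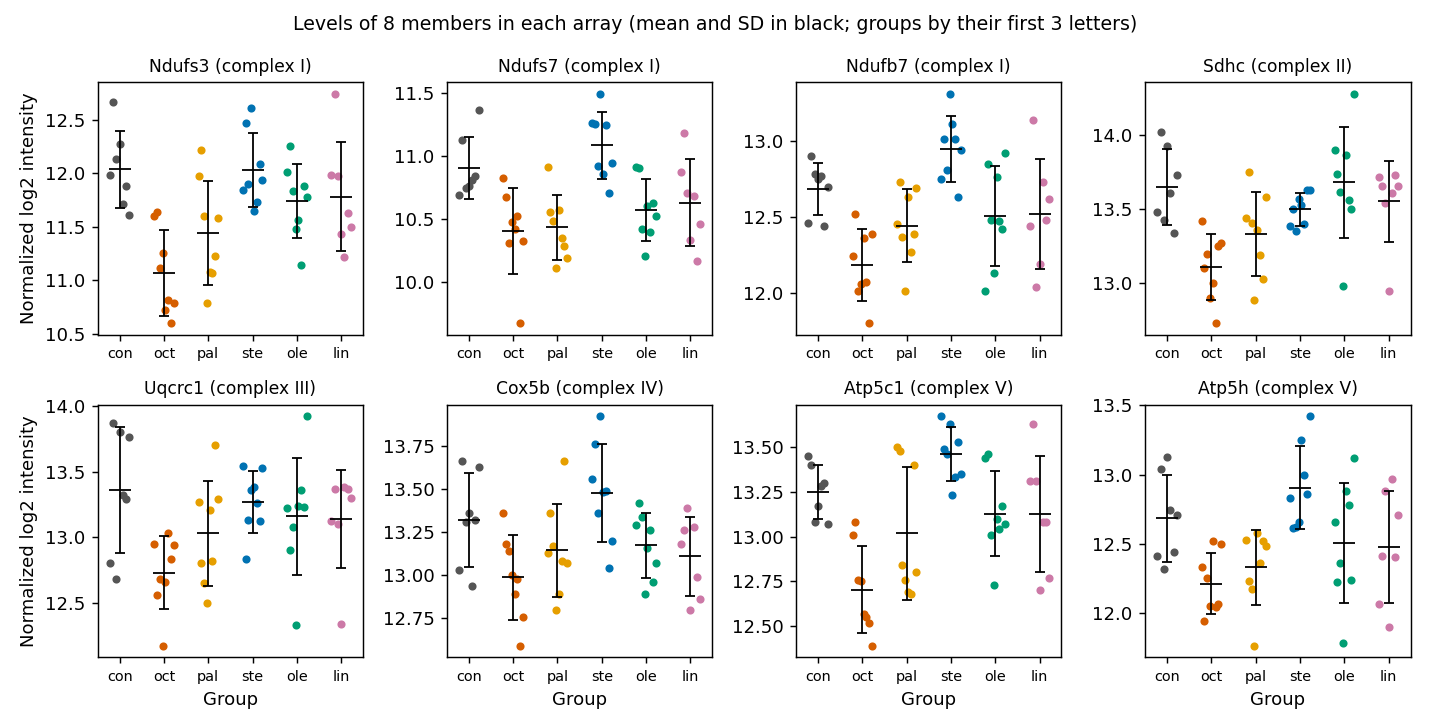
Normalized log2 intensity (vertical axis) of 8 members in each array of the 6 groups, abbreviated by their first 3 letters, with mean and SD in black. For Ndufs3, Ndufs7, Ndufb7, Sdhc and Atp5c1, 7 of 8 octanoate arrays lie below every control array; the Atp5h arrays of stearate lie above those of palmitate.

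Other markers moved with the fall under octanoate. Of 8 cardiomyocyte markers 4 fell, among them Tnnt2, cardiac troponin T (-0.48 ± 0.10, adjusted p = 0.000545), and the mean of the 8 was 13.20 to 13.61 in the control arrays and 12.51 to 13.07 in the octanoate arrays. Of 2 leukocyte probes tested 1 rose, Cd68, a macrophage marker (1.12 ± 0.21, adjusted p = 8.08e-05), and the median change of the 2 was 0.53. The part of these in the fall of the members was not tested. With arrays 4 and 7 of each group left out, which held most of the high hypoxia values, 7 members fell instead of 15. Scaled to the median of all probes, 1 member fell. The shares of all probes that fell in these settings are not given here.

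Promoter sequences were compared because these genes have known shared regulators, and those shown are the octanoate-lowered members whose promoter holds an NRF1 or YY1 motif. The RefSeq table of assembly GRCr8 gave a promoter for 50 of 57 members, read from 250 bases before to 30 after the gene's start. The NRF1 motif GCGCNTGCG was found, on either strand, in 28% of these and in 6.15% of all 27457 promoters in the table. The YY1 motif AAGATGGCG was found in 10% against 1.60%, the GABPA motif CCGGAAGTG in 4% against 1.93%, the ESRRA motif TCAAGGTCA in 2% against 0.39% and the SP1 motif GGGGCGGGG in 10% against 10.2%. None of these motifs is part of another, and a match is a description of letters, not of binding. Of 14 promoters of members that fell under octanoate, 4 held the NRF1 motif and 2 the YY1 motif, with Uqcrc1 among both, and 4 others (Ndufa10, Ndufs3, Sdhc and Atp5s) held the SP1 motif and are not shown. The sequences are given 5′ to 3′ on the strand of the gene, with the NRF1 or YY1 motif in capitals; in Ndufs5b and Atp5c1 the NRF1 motif lies on the opposite strand.
Ndufs5b, chr5:141264373-141264652, minus strand: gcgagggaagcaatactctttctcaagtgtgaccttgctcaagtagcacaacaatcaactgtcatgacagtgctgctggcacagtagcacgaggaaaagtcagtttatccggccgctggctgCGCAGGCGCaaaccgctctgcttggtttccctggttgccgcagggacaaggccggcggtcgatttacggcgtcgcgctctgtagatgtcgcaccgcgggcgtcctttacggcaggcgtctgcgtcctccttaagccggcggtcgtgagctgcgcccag
Ndufs7, chr7:10110469-10110748, minus strand: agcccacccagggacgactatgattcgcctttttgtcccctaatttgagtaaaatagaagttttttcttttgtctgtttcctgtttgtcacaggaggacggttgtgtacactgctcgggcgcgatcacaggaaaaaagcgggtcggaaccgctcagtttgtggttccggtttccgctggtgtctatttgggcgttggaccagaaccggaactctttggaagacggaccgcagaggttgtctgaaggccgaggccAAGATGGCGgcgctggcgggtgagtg
Uqcrc1, chr8:118467973-118468252, plus strand: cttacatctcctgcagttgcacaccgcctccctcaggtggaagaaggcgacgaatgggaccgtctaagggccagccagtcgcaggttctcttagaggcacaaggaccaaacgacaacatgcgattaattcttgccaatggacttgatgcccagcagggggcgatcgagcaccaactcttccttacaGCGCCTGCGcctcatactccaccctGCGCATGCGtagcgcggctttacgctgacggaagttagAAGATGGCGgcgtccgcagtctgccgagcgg
Atp5c1, chr17:73333435-73333714, plus strand: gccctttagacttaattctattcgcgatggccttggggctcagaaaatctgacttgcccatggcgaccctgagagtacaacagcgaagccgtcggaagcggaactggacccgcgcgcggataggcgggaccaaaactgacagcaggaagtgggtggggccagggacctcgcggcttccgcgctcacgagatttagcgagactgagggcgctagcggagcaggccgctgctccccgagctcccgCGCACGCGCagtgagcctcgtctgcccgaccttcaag
Atp5d, chr7:10214321-10214600, minus strand: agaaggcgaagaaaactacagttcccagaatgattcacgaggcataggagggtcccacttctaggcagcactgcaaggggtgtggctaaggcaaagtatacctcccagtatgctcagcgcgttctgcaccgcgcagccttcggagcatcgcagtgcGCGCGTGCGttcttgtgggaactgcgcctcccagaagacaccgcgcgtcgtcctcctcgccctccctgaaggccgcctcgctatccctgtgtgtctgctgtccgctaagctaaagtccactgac
The NRF1 motif began 128 bases before the start in Ndufs5b, 94 in Atp5d, 7 in Atp5c1 and 64 and 39 in Uqcrc1, which held it in 2 places. The YY1 motif of Uqcrc1 began 1 base before the start and that of Ndufs7 just after it.

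Palmitate, a long-chain saturated fatty acid, lowered 1 member, Ndufs7, past the test. The median change was -0.20, beside -0.03 over all probes, and 43 of 57 members were negative. Ndufs7 fell (1 member, 1.75%, where 5.73% of all probes fell), from 10.69 to 11.36 (median 10.81) in control to 10.11 to 10.91 (median 10.41), by 0.47 ± 0.16 (adjusted p = 0.0408). Under palmitate 7 of 8 arrays lay below the lowest control array. No member rose, where 5.39% of all probes did. The call of Ndufs7 is at the threshold and was lost in 12 of 20 alternative settings. Without the arrays numbered 3, 4, 5, 6 or 7 in turn 0 members passed, 3 passed without those numbered 1 and 2 without those numbered 8. The 2 that passed without those numbered 8 did not include Ndufs7.

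Several members that fell under octanoate had changes under palmitate that did not pass. Ndufs3 changed by -0.59 ± 0.21 (adjusted p = 0.0593) and Ndufa2 by -0.37 ± 0.14 (adjusted p = 0.0727). Among the core subunits, Ndufv1 changed by -0.39 ± 0.22, Atp5a1 by -0.43 ± 0.25, Sdhb by -0.37 ± 0.25, Uqcrc1 by -0.33 ± 0.19, Cox4i1 by -0.24 ± 0.18 and Atp5b by -0.21 ± 0.15. Estimates nearer to 0 were those of Sdha (-0.19 ± 0.44), Uqcrfs1 (-0.03 ± 0.15), Ndufs1 (-0.03 ± 0.37) and Cox5a (0.14 ± 0.35). In all, 11 members had an unadjusted p under 0.05. The 15 members that fell under octanoate had a median change of -0.36 under palmitate, 0.05 under stearate, -0.18 under oleate and -0.21 under linoleate, in comparisons that share the control arrays.

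Palmitate and octanoate differ in chain length. Set directly against each other, 0 of 57 members passed, beside 2.26% of all probes, and 2 had an unadjusted p under 0.05. The median difference was 0.17 (all probes -0.01), with 49 members higher under palmitate. Atp5c1 had the smallest adjusted p (0.31 ± 0.13, adjusted p = 0.272), with a 95% interval from 0.04 to 0.58, and Ndufs3 differed by 0.37 ± 0.20, with an interval from -0.03 to 0.78. For Ndufs7 the difference was 0.03 ± 0.15, with an interval from -0.27 to 0.33. The core subunits differed by 0.08 (Atp5a1 and Sdhb) to 0.30 (Uqcrc1) and none passed. With the replicate number as a block, again 0 members passed.

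Under stearate, a saturated fatty acid with a longer chain than palmitate, most estimates were above 0, but 1 member passed against control. Of 57 members 47 were positive, with a median of 0.18 beside -0.05 over all probes. Without stearate replicate 4 the count was 35 and the median 0.08, beside -0.08 over all probes. Ndufv3l, an accessory subunit of complex I, rose (1.75% of members, where 4.42% of all probes rose), and no member fell, where 8.79% of all probes did. Its level was 5.99 to 6.56 (median 6.39) in control and 6.72 to 7.88 (median 6.98) under stearate, with no overlap, a change of 0.83 ± 0.19 (adjusted p = 0.00326). The probe is the least often detected of all members: 1 control array and 3 stearate arrays read it above background, and the difference lies near that limit. Without stearate replicate 4 the change was 0.89 (adjusted p = 0.00162), and without the arrays numbered 3 a second member passed, for a count of 2.

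The core subunits showed no change past the test under stearate, from -0.21 ± 0.15 for Atp5b to 0.48 ± 0.35 for Cox5a. Between these lay Uqcrc1 (-0.09 ± 0.19), Ndufv1 (-0.08 ± 0.22), Cox4i1 (-0.03 ± 0.18), Atp5a1 (-0.03 ± 0.25), Sdha (0.09 ± 0.44), Sdhb (0.22 ± 0.25), Uqcrfs1 (0.23 ± 0.15) and Ndufs1 (0.39 ± 0.37). Ndufs3 (-0.01 ± 0.21, 95% interval -0.43 to 0.42) and Ndufa2 (0.09 ± 0.14, interval -0.19 to 0.36), which fell under octanoate, had estimates near 0. Of the c subunit genes Atp5g3 changed by 0.50 ± 0.20 (adjusted p = 0.0887), Atp5g2 by 0.32 ± 0.30 and Atp5g1 by 0.20 ± 0.15. The sign of the members' median under stearate depends on the scaling. With arrays scaled to the median of the probes detected in all arrays, it was 0.28, beside 0.15 over all probes tested. Scaled to the median of all probes, it was -0.36 while the median of the tested probes shifted to -0.49, so the members stood 0.13 above that shift, against 0.23 above it in the quantile-normalized data.

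Stearate arrays differed in quality and in markers of other cells. The arrays numbered 5 to 8 had 3090 to 4632 detected probes, against 5686 to 7220 in those numbered 1 to 4, and their raw signal range (95th percentile over median) was 4.79 to 6.68, against 9.47 to 16.1. With this range as a covariate 11 members passed under stearate instead of 1, among them Ndufv3l at a change of 0.45 (adjusted p = 0.0151). The share of all probes that passed with the covariate is not given here. Ndufv3l read 7.12 to 7.88 in the stearate arrays numbered 5 to 8 and 6.72 to 6.84 in those numbered 1 to 4. The pericyte marker Cspg4 (-2 ± 0.31, adjusted p = 1.29e-05) and the fibroblast marker Dcn (-1.14 ± 0.39, adjusted p = 0.045) fell. Dcn was the 1 that passed of 4 fibroblast probes tested, whose median change was -0.47. Stearate replicate 4, kept here, was the highest of its group for Cspg4 (7.97) and for the mean of the fibroblast probes (9.22). The part of these in the members' changes was not tested.

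Stearate and palmitate differ in chain length, and 7 members differed between them. Under stearate 7 of 57 members were higher (12.3%), where 1.11% of all probes were higher, and 0 were lower, where 3.05% were. The estimate was positive for 56 of 57 members, with a median of 0.37 beside -0.05 over all probes, and 26 members had an unadjusted p under 0.05. It was positive for 53, with a median of 0.27, without stearate replicate 4. Complex I held 5 of the 7, with a median of 0.46 over its 25 members, and the ATP synthase 2, with a median of 0.39 over its 12. The medians of complexes II, III and IV, which had no member past the test, were 0.33, 0.26 and 0.30.

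Ndufs7 differed most. It read 10.11 to 10.91 (median 10.41) under palmitate and 10.70 to 11.49 (median 11.09) under stearate, a difference of 0.65 ± 0.15 (adjusted p = 0.00831), and was higher under stearate in 8 of 8 pairs of arrays with the same replicate number. Atp5h, of the peripheral stalk of the ATP synthase, read 11.76 to 12.58 (median 12.42) and 12.61 to 13.42 (median 12.84), so that the groups did not overlap (0.58 ± 0.17, adjusted p = 0.0363). Ndufb7 read 12.01 to 12.73 (median 12.42) and 12.63 to 13.31 (median 12.97), with a small overlap (0.50 ± 0.14, adjusted p = 0.0275). Atp5h and Ndufb7 were also higher in 8 of 8 pairs.

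Ndufv2 (0.49 ± 0.14, adjusted p = 0.0319), Ndufa2 (0.46 ± 0.13, adjusted p = 0.0376) and Atp5c1 (0.44 ± 0.13, adjusted p = 0.0466) were likewise higher. These 6 members had also fallen under octanoate. Ndufv3l was the seventh (0.64 ± 0.19, adjusted p = 0.0378), at 6.30 to 6.89 (median 6.42) under palmitate and 6.72 to 7.88 (median 6.98) under stearate. Its probe lies near the background. Members that did not pass ranged from -0.19 to 0.64. Among the core subunits Sdhb differed by 0.59 ± 0.24 (adjusted p = 0.16), Ndufs1 by 0.42 ± 0.36, Atp5a1 by 0.40 ± 0.24, Cox5a by 0.34 ± 0.34, Ndufv1 by 0.31 ± 0.21, Sdha by 0.28 ± 0.43, Uqcrfs1 by 0.26 ± 0.15, Uqcrc1 by 0.24 ± 0.19 and Cox4i1 by 0.21 ± 0.17. The catalytic Atp5b differed by 0.01 ± 0.14 (adjusted p = 0.991), and was higher in 4 of 8 pairs and lower in 4.

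Arrays of palmitate and stearate with the same number deviated together, and with the number as a block 15 members were higher. These were 11 of complex I, Sdhb, and Atp5c1, Atp5h and Atp5i of the ATP synthase. The share of all probes that were higher with the block is not given here. The count depends on few arrays: without the arrays numbered 3, 5 or 6 in turn it was 1, without 8 it was 2, without 7 it was 3, and without stearate replicate 4 it was 5. Without that stearate array Ndufa2 (adjusted p = 0.0506) and Atp5c1 (adjusted p = 0.0634) did not pass. Scaled to the median of all probes, 0 members passed and the median was -0.02, while the median of the tested probes shifted to -0.39; the members then stood 0.37 above that shift. The cardiomyocyte markers had the median difference of the members (0.37 over 8 genes), and their array means were 12.82 to 13.31 under palmitate and 13.31 to 13.69 under stearate. Cspg4 (-1.01 ± 0.30, adjusted p = 0.0392) and the macrophage marker Cd68 (-0.88 ± 0.20, adjusted p = 0.00624) were lower under stearate. Cd68 was 1 of 2 leukocyte probes tested, whose median difference was -0.46. The part of these markers in the difference was not tested.

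**Figure D3:**
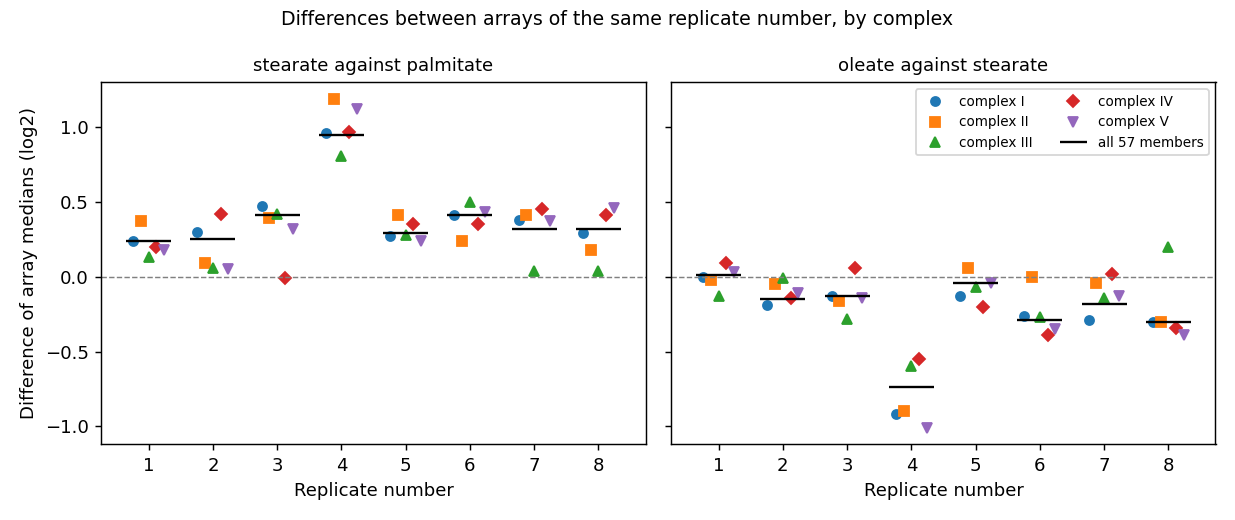
Difference of array medians (log2, vertical axis) between arrays with the same replicate number (horizontal axis), over all 57 members (black bars) and within complexes I to V (symbols). The black bars of stearate against palmitate are above 0 for 8 of 8 numbers, from 0.24 to 0.95, and those of oleate against stearate are below 0 for 7 of 8. With arrays scaled to the median of all probes, the median change over the members was -0.02 and 0.16 in these comparisons. Over all probes tested it was then -0.39 and 0.41.

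Oleate is the counterpart of stearate with a double bond. Against stearate 3 of 57 members were lower (5.26%), where 2.30% of all probes were lower, and 0 were higher, where 4.64% were. All 3 belong to complex I. Ndufs7 was at 10.20 to 10.91 (median 10.56) under oleate and 10.70 to 11.49 (median 11.09) under stearate (-0.51 ± 0.15, adjusted p = 0.0277). Ndufb7 was at 12.01 to 12.92 (median 12.48) and 12.63 to 13.31 (median 12.97) (-0.44 ± 0.14, adjusted p = 0.0409). Ndufv3l was at 6.05 to 7.15 (median 6.51) and 6.72 to 7.88 (median 6.98) (-0.60 ± 0.19, adjusted p = 0.038). Each of the 3 was lower under oleate in 8 of 8 pairs of the same number, although the ranges overlapped.

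The median difference over the members was -0.26, beside 0.04 over all probes, and 49 of 57 were negative. Without stearate replicate 4 it was -0.16, beside 0.07, and 40 were negative. Cox5a (-0.41 ± 0.34), Sdhb (-0.48 ± 0.24), Ndufs1 (-0.34 ± 0.36), Uqcrfs1 (-0.26 ± 0.15), Sdha (-0.23 ± 0.43) and Atp5a1 (-0.16 ± 0.24) had negative estimates that did not pass. Estimates for Uqcrc1 (-0.11 ± 0.19), Cox4i1 (-0.03 ± 0.17), Ndufv1 (-0.02 ± 0.21) and Atp5b (0.11 ± 0.14) were nearer to 0. With the replicate number as a block, which pairs these arrays too, 7 members were lower, adding Ndufb9, Ndufv2, Atp5c1 and Atp5h. The share of all probes that were lower with the block is not given here. Without stearate replicate 4 only Ndufv3l passed, without the arrays numbered 3, 5 or 6 in turn 0 members did, and without 1, 4, 7 or 8 in turn 1 did. Scaled to the median of all probes 0 passed and the median was 0.16, below the 0.41 by which the median of the tested probes had shifted. The cardiomyocyte markers Tnnc1 (-0.50 ± 0.13, adjusted p = 0.0108) and Tnni3 (-0.43 ± 0.11, adjusted p = 0.00864) were lower and Cspg4 (1.69 ± 0.30, adjusted p = 0.000157) was higher under oleate than under stearate. Tnnc1 and Tnni3 were the 2 that passed of 8 cardiomyocyte markers, whose median difference was -0.19. The part of these markers in the members' difference was not tested.

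Neither unsaturated fatty acid changed a member past the test against control. Under oleate 0 of 57 passed (0.574% of all probes did, in either direction), with 3 at an unadjusted p under 0.05, and under linoleate 0 of 57 passed (0.465% of all probes), with 1 at an unadjusted p under 0.05. The medians were -0.08 and -0.04, beside -0.01 and -0.02 over all probes. Under oleate the core subunits lay between -0.26 ± 0.25 (Sdhb) and 0.08 ± 0.35 (Cox5a), and under linoleate between -0.22 ± 0.20 (Uqcrc1) and 0.21 ± 0.36 (Cox5a). Ndufs7 changed by -0.33 ± 0.16 under oleate (95% interval -0.65 to -0.02, adjusted p = 1) and by -0.28 ± 0.16 under linoleate (interval -0.60 to 0.05, adjusted p = 0.778). The interval of a member reached a median of 0.41 to either side under oleate and 0.43 under linoleate, beside a median change of -0.38 under octanoate.

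Linoleate has a further double bond. Between them 0 of 57 members passed limma's test and 0 had an unadjusted p under 0.05, while 0 of 7312 probes passed (0%) and 32 had an unadjusted p under 0.05. The median difference of the members was 0.04, with a range from -0.16 to 0.46. For Ndufs3 the 95% interval ran from -0.38 to 0.46, for Ndufb7 from -0.27 to 0.30, for Ndufa2 from -0.33 to 0.22 and for Atp5c1 from -0.28 to 0.28. The core subunits differed by at most 0.23 ± 0.44 (Sdha).

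The members also varied within groups, and much of that spread followed the replicate number. The median over all 57 members of an array, relative to the control mean, was -0.14 to 0.20 (median -0.03) in the control arrays and -0.64 to 0.05 (median -0.39) under octanoate. It was -0.41 to 0.19 (median -0.31) under palmitate, -0.12 to 0.66 (median 0.14) under stearate, -0.32 to 0.29 (median -0.12) under oleate and -0.25 to 0.28 (median -0.02) under linoleate. The groups overlap, but within each fatty acid the arrays numbered 1 and 2 lay above those numbered 5 to 8, with medians over the fatty acids of 0.18 and 0.28 against -0.16 to -0.33. Over the 39 fatty acid arrays the group took 40.3% of the sum of squares of this median and the replicate number 46.5%. The labels do not say what the number stands for.

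**Figure D4:**
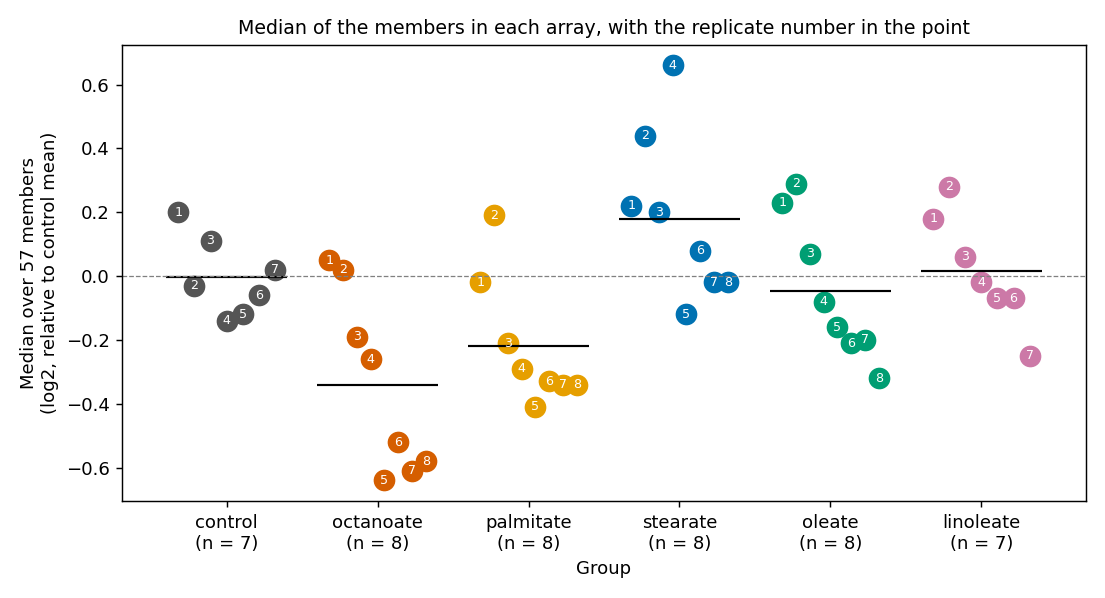
Median over the 57 members in each array (log2 relative to the control mean, vertical axis) by group, with the replicate number in each point and the group mean as a bar. Octanoate arrays 5 to 8 are the lowest, at -0.64 to -0.52, and stearate replicate 4, the array whose Pdk4 is at control level, is the highest, at 0.66.

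In the quantile-normalized data, pairing arrays of the same number left the stearate and palmitate difference in place, apart from 1 pair of complex IV. The array median over all members was higher under stearate in 8 of 8 pairs, by 0.24 to 0.95 (median 0.32). It was higher in 8 of 8 pairs for complexes I, II, III and V and in 7 of 8 for complex IV. The largest difference, 0.95, was that of number 4, whose stearate array is in doubt, and the others were 0.24 to 0.41. Pairing does not address the scaling: scaled to the median of all probes, the members' median difference was -0.02, beside -0.39 over all probes tested. Oleate was below stearate in 7 of 8 pairs (-0.74 to 0.01, median -0.16). For palmitate against octanoate the ATP synthase median was higher in 8 of 8 pairs (0.04 to 0.33), while that of complex I was higher in 5 of 8.

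Other genes of the pathway, from lists of assembly factors, carriers and regulators, are given for the comparison. Of 15 assembly factors tested 3 fell under octanoate, where 12.9% of all probes fell, and 0 rose, where 11.5% did: Acad9 (-1.01 ± 0.21, adjusted p = 0.000305) and Ecsit (-0.77 ± 0.15, adjusted p = 0.000141), which help to build complex I, and Surf1 (-0.73 ± 0.19, adjusted p = 0.00359), which helps to build complex IV. Acad9 also fell under palmitate (-0.74 ± 0.21, adjusted p = 0.0147) and was higher under stearate than under palmitate (0.67 ± 0.20, adjusted p = 0.0442). No other comparison called an assembly factor.

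Of 19 genes for electron carriers and ATP export, 5 fell and 1 rose under octanoate, beside the same 12.9% and 11.5% of all probes. Coq8a, a kinase-like protein needed to make ubiquinone, fell by 1.56 ± 0.24 (adjusted p = 6.06e-06), and Coq9, of the same pathway, by 0.91 ± 0.26 (adjusted p = 0.0089). Coq10b, a ubiquinone-binding protein, rose by 1.80 ± 0.25 (adjusted p = 1.36e-06). Under palmitate 4 fell and 2 rose, beside 5.73% and 5.39% of all probes. Under stearate 0 fell and 4 rose, beside 8.79% and 4.42%. Under oleate and under linoleate 0 fell and 1 rose, where 0.574% and 0.465% of all probes passed in either direction. The gene that rose in these last 2 groups was Etfdh, which passes electrons from fatty acid oxidation to ubiquinone, by 1.11 ± 0.20 (adjusted p = 0.000659) and 1.07 ± 0.21 (adjusted p = 0.00314). Cycs, cytochrome c, rose under stearate (0.51 ± 0.14, adjusted p = 0.0142).

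Of 13 regulators of mitochondrial transcription and DNA, 2 rose and 0 fell under octanoate, a share of rises near the 11.5% of all probes: Twnk, the helicase of mitochondrial DNA (0.87 ± 0.22, adjusted p = 0.00322), and Pprc1, a coactivator of the PGC-1 family (1.05 ± 0.32, adjusted p = 0.012). Under palmitate 2 rose and 1 fell, beside 5.39% and 5.73% of all probes. Under stearate 0 rose and 1 fell, beside 4.42% and 8.79%. The gene that fell in both was Polrmt, the mitochondrial RNA polymerase (-0.80 ± 0.21, adjusted p = 0.00952, and -1.02 ± 0.21, adjusted p = 0.00105).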

How the data were processed

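Total RNA of 46 samples was measured on Illumina rat bead arrays with 1 dye. The deposited table holds the mean bead intensity of each probe (BeadStudio, version 3, according to the submitters' processing notes) without visible scaling and, per the file headers, a detection p-value; the authors' value table holds quantile-normalized intensity. Symbols were matched to RefSeq names for GRCr8 (12133 of 22517 probes and 60 of 60 that the symbol rule found). Intensities were background-corrected (normal-exponential model, background inferred from detection p-values, offset 16), quantile-normalized between arrays and log2-transformed with limma 3.58.1 in R 4.3.3. A model of 6 group means over 46 arrays (empirical Bayes with trend) was fitted to the 7312 detected probes, with two-sided tests. The number of arrays limits the precision: a member's 95% interval reached a median of 0.40 to 0.43 to either side. On simulated data with 200 changed probes of 7312, 73.6% of log2 changes of 1 and 14.4% of 0.5 were recovered for stearate against control.

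Members, lists and tests were chosen with earlier results of these data known. Named were, per comparison, the largest changes past the test (6 each way against control, 4 between fatty acids), the 2 smallest F test p-values per complex, 10 core subunits and the isoforms; Ndufs5b, Ndufv2, Atp5i and Ndufb9 were added after their values were seen. Replicate numbers were checked for pairing by correlating same-numbered arrays' deviations from group means: every one of the 8 correlations was over 0.1 between octanoate and palmitate (lowest 0.333), palmitate and stearate (0.138) and stearate and oleate (0.179), where the block is therefore given. Alternatives were other scalings and filters, array weights, a signal range covariate and arrays left out. Probe sequences were not used here.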

Additional observations from a re-analysis of the deposited data

Results flagged for a closer look

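Within groups of 7 or 8 arrays, 1 array lay far from the others in 20 of 228 sets tested (the named members, the array medians and Pdk4), where chance flags about 1 in 20 sets. Stearate replicate 4 had the lowest Pdk4 of its group (7.33, next 11), the highest Atp5g1 (15.44, next 15.03) and the highest ATP synthase median (0.64, next 0.21). Linoleate replicate 4 was the lowest of its group for Sdhc (12.95), Uqcrc1 (12.34), Atp5g1 (13.86), Cox6a2 (14.25) and the complex III median (-0.41). Oleate replicate 4 was the lowest for Atp5g1 (13.92) and Ndufa10 (12.34). Both of these arrays had high hypoxia values, and the part of these in the low levels was not tested.

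Atp5g2 was lowest in the arrays numbered 7 of octanoate (10.31), palmitate (10.68) and stearate (11.46), and in oleate replicate 8 (11.38). Octanoate replicate 7 was also lowest for Ndufs7 (9.67). Palmitate replicate 2 was highest for Sdhb (13.16) and for the complex II median (0.83). Control replicate 4 was lowest for Cox6a2 (14.42), linoleate replicate 6 for Cox8h (13.36) and linoleate replicate 5 for Uqcrc2 (12.74).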

How the results depend on the processing

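Counts are of members past limma's adjusted threshold, from 15 for octanoate, 1 for palmitate and 1 for stearate against control, 7 for stearate against palmitate, 3 for oleate against stearate and 15 for any fatty acid. The shares of all probes that passed in the other settings are not given, so those counts cannot be set against the background. Scaling to the median of all probes gave 1, 0, 1 (a different member, lower), 0, 0 and 0, and moved the median changes of stearate (-0.36), linoleate (-0.25), stearate against palmitate (-0.02) and oleate against stearate (0.16). The medians over all probes tested were then -0.49, -0.22, -0.39 and 0.41. The median over probes detected in all arrays gave 14, 2, 3, 16, 12 and 20, and the 2 under palmitate did not include Ndufs7. No detection filter gave 9, 0, 1, 1, 0 and 11. The replicate block gave 24, 11, 3, 15, 7 and 30, though control arrays did not deviate with the same-numbered ones, and changed no other count of the text. Fitting only the groups compared gave 13, 1, 1, 3 and 0, and the 1 under palmitate was not Ndufs7. Leaving out the arrays numbered 4 and 7 gave 7, 0, 1, 1, 0 and 10. Array weights gave 19, 4, 1, 16, 5 and 26, and the signal range as a covariate 15, 7, 11, 10, 6 and 27. Without stearate replicate 4, chosen after seeing the data, the counts were 18, 1, 1, 5, 1 and 11. Leaving out each number in turn gave 11 to 16, 0 to 3, 1 to 2, 1 to 6, 0 to 3 and 8 to 16, with 8 without number 5 and 9 without number 6 for any fatty acid. One probe per symbol, no background correction and the authors' value table gave 16 for octanoate and left the other 5 counts as they were. No call turned its sign in these settings. The fall of Ndufa10 under octanoate passed in 20 of 20 settings, and those of Ndufs3, Ndufa2, Atp5c1 and Sdhc in all but 1; Atp5b was lost in 11 and Atp5g1 in 10. Between stearate and palmitate Ndufs7 was lost in 1 setting and the other 6 in 7 to 12. Ndufv3l, Atp5s and Atp5g3 lie near the background, which limits what their changes show.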
